A study of Homo sapiens with 60 samples.

Results

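The comparison described here sets a high against a low dose of one herbal extract in HT29, an established line of human colorectal adenocarcinoma cells. The extract is Citri Unshius Pericarpium, dried citrus peel taken up in water. Its members are all genes in 6 of the 60 samples analysed: 3 libraries of cells given the high dose (500 µg/mL) and 3 given the low dose (20 µg/mL), each for 24 h. The sample labels alone decided which libraries belong to it. The labels carry replicate numbers 1 to 3 at each dose, and the replicate number was a term of the model. Beside them stand 3 libraries of the medium dose (100 µg/mL), 6 libraries of Cimicifugae Rhizoma water extract (cimicifuga) at the same high and low doses, and 3 vehicle libraries (0.1% DMSO in the sample labels, 2% in the series' design text). The sample titles place all of these libraries in BatchB. Citrus peel and cimicifuga share the first part of their sample codes and the vehicle has another. The labels do not say what that part stands for, and the vehicle is given as a level only. The question is which transcripts of these cells differ between a high and a low exposure to the same extract. HT29 is 1 cell line in culture, without the other cells of the colon. The labels do not say whether replicates came from different cultures. The p-values therefore rest on the spread among these libraries, part or all of which may be technical.

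Cells that sense viral nucleic acid, or interferon made by other cells, switch on a large set of antiviral genes. Interferon receptors act through the complex ISGF3, which contains IRF9 and STAT2, and ISGF3 binds a short promoter motif, the interferon-stimulated response element. Epithelial cells keep a low tonic level of these transcripts. Sterol genes are governed by SREBP factors, which INSIG1 holds in the endoplasmic reticulum when sterols are plentiful. Genes of DNA replication are switched on by E2F factors as cells enter S phase, and the chaperone HSPA5 (BiP) is a classic target of the unfolded protein response.

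The libraries held 28.9 to 32.0 M counts at the high dose, 30.0 to 40.05 M at the medium and 23.9 to 35.5 M at the low dose. All 15 of the colon epithelium markers examined were tested, with summed levels of 11722 to 12539 counts per M (CPM) at the high and 11752 to 12627 CPM at the low dose. The summed markers of fibroblasts, T and NK cells, B cells and endothelium stayed at or under 3.09 CPM in each of these 6 libraries, while 5 of 8 myeloid and 5 of 6 hepatocyte markers lay under 1 CPM (sums of 10.5 to 14.7 and 338 to 388 CPM). RN7SL2, a signal recognition particle RNA, set the replicate 3 libraries apart: its CPM was 102, 67.0 and 113 in the high, medium and low library of replicate 3, against 3.44 to 9.92 in the other 6 citrus peel libraries. Between high and low dose it did not separate (log2 fold change 0.18, adjusted p = 0.714 in edgeR's quasi-likelihood test). Ribosomal protein genes took 4.48% to 5.15% and mitochondrial genes 7.65% to 9.65% of counts in the 9 citrus peel libraries.

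At the high dose of citrus peel a set of antiviral interferon response genes was lower, with OAS2, IFIT1 and MX1 at 0.516, 0.577 and 0.613 times their low-dose levels, and so was the acetate-activating enzyme ACSS2. Higher were HSPA5, the cell cycle phosphatase CDC25A and 8 further named protein-coding genes, by 0.20 to 0.27 on the log2 scale. Of 15553 genes tested, 43 passed an adjusted p of 0.05 and are called here (0.276%, Benjamini-Hochberg adjustment over all genes tested), 12 of them higher (0.0772%) and 31 lower (0.199%) at the high dose. The lower genes changed by 0.20 to 1.00 on the log2 scale and the higher ones by 0.20 to 0.94, and 0 of the 43 reached a log2 change of 1. The largest fall and rise were those of ENSG00000250264 and ENSG00000261093, genes without a symbol. Both had low levels (high-dose means of 1.21 and 4.88 CPM), and their groups overlapped. The 3 high-dose libraries lay wholly beyond the 3 low-dose libraries for 11 of the 12 higher and 30 of the 31 lower genes. The same was so for 8.03% (higher) and 7.72% (lower) of all genes tested. At an unadjusted p under 0.05 in edgeR, 1095 of the 15553 genes were higher and 973 lower. List counts at that p, given below, are to be read beside these.

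These calls depended on the replicate term and on which replicates were in the fit, and a fit that leaves out a replicate has only 4 libraries. Without that term 9 genes passed, all lower (9 of the 31) and 0 higher, where 750 genes were higher at an unadjusted p under 0.05 and DESeq2 with the term called 8 higher and 24 lower. Leaving out replicate 2 left 0 genes, with 1245 at an unadjusted p under 0.05, and leaving out replicate 1 gave 5 lower genes, 4 of them among the 31. Leaving out replicate 3 gave 26 higher and 35 lower, and 27 of the 43 genes were among them. Fits that took in the medium dose or cimicifuga, or that dropped the filter on low counts, called more genes. With 9 citrus peel libraries 105 genes were higher and 123 lower of 15903. With 18 libraries of both extracts it was 83 and 121 of 16325, and with no filter 229 and 260 of 28220. List counts from these fits, given below, are to be read beside these. The sign of all 43 genes was kept in each of the 10 alternative settings.

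**Figure D1:**
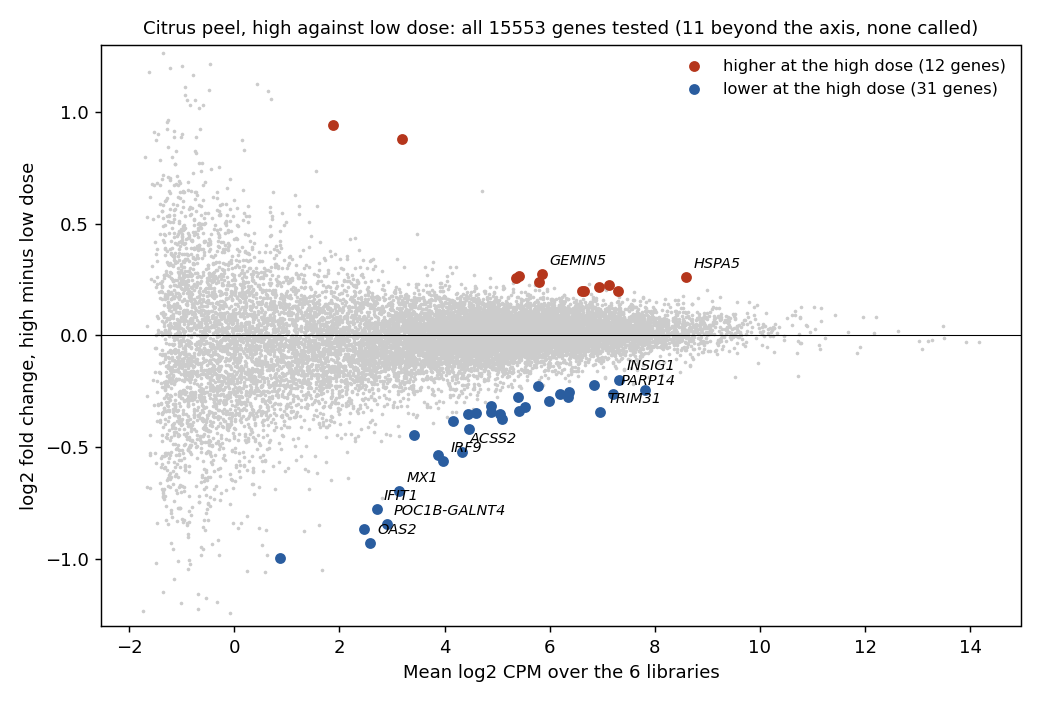
Each point is a gene of the high against low comparison: the x axis is its mean log2 CPM over the 6 libraries, the y axis its log2 fold change, and red and blue mark the 12 higher and 31 lower genes. The named interferon genes OAS2, IFIT1, MX1 and IRF9 lie at the low-abundance, strongly lower end, whereas HSPA5 is the most abundant of the higher genes.

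Of 54 tested genes in a list of interferon response genes, 10 were lower and 0 higher at the high dose, against 0.199% lower among all genes. The list's median log2 fold change was -0.27, against 0.0012 for all genes, and 52 of its 54 members had a negative value. To show the motif through which ISGF3 acts, promoter letters are printed for the 5 of these 10 genes in which a search found it: IFIT1, IFIT3, PARP14, IFITM3 and SAMD9. The search covered the 250 bases before the RefSeq start (GRCh38.p14), on both strands, for the letters GAAA followed, after any 2 bases, by GAAA again. Each sequence runs 5′ to 3′ on the strand of its gene, and capitals mark the matches. Where the capitals begin with TTTC, the motif lies on the opposite strand.
IFIT1, chr10:89392482-89392554, plus strand: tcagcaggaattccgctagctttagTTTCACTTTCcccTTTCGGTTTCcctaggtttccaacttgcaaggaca
IFIT3, chr10:89327816-89327909, plus strand: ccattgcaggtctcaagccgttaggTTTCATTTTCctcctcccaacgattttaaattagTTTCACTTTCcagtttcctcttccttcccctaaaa
PARP14, chr3:122680785-122680838, plus strand: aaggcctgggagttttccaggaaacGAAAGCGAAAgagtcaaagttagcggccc
IFITM3, chr11:320861-320937, minus strand: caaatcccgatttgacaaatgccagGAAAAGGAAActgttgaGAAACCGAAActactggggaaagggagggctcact
SAMD9, chr7:93118081-93118140, minus strand: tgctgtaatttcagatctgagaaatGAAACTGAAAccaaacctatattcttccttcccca
IFIT1, IFIT3 and IFITM3 have 2 matches each in these windows, and PARP14 and SAMD9 have 1. The motif was found in 3.07% of 27305 promoters of this length and in 2.24% of the 10887 tested genes with a promoter in the table. In the interferon list it was found in 21 of 42 members with a promoter, that is in 5 of 9 that passed the test and in 16 of 33 that did not. MX1, OAS1, IRF9 and PARP9 had no such letters in this window, and OAS2 had no entry. A match is a description of letters and not a measured binding site.

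Among the called genes that act on viral RNA, OAS2 showed the largest change. OAS2 and OAS1 are oligoadenylate synthetases that activate RNase L on sensing double-stranded RNA, and both lie on chromosome 12 (OAS2 at 112978395-113011723, OAS1 at 112906777-112933222). OAS2 stood at 3.87, 4.79 and 3.65 CPM in the high-dose libraries of replicates 1, 2 and 3 and at 5.89, 8.81 and 9.15 CPM in the low-dose libraries. All 3 high-dose values were under the lowest low-dose value, and OAS2 fell by 0.93 ± 0.12 (log2 fold change ± SE, 3 libraries a group, edgeR adjusted p = 0.0203). OAS1 stood at 25.8, 27.3 and 24.6 CPM against 30.9, 34.1 and 33.7 CPM and fell by 0.34 ± 0.05 (edgeR adjusted p = 0.0397). The groups did not overlap for OAS1 either, at a level several times that of OAS2.

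IFIT1 and IFIT3 are neighbours on chromosome 10, and the IFIT1 protein binds foreign RNA. IFIT1 held 5.80, 4.61 and 3.83 CPM at the high dose and 7.46, 8.81 and 8.39 CPM at the low dose, a log2 fold change of -0.78 ± 0.13 with an edgeR adjusted p of 0.05 after rounding, just within the threshold. IFIT3 held 8.28, 9.47 and 9.15 CPM against 11.8, 13.1 and 11.6 CPM and fell by 0.44 ± 0.07 (edgeR adjusted p = 0.0429). In both genes the highest high-dose library was under the lowest low-dose library. OAS1, like PARP9 and SAMD9 further on, falls outside the naming rule and was named after its values were seen.

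MX1, a dynamin-like antiviral GTPase on chromosome 21, counted 6.48, 7.27 and 6.23 CPM at the high dose. At the low dose MX1 counted 9.14, 12.6 and 10.9 CPM, so that MX1 fell by 0.70 ± 0.09 (edgeR adjusted p = 0.018). IFITM3, a membrane protein that blocks virus entry through endosomes, counted 13.6, 16.8 and 16.4 CPM against 17.8, 20.4 and 22.8 CPM and fell by 0.38 ± 0.06 (edgeR adjusted p = 0.044). The IFITM3 groups came closest to each other, at 16.8 and 17.8 CPM. Reads that fit both IFITM3 and its near-identical relatives were shared out by the counting program, so its value is less certain, and IFITM2 and IFITM1 had log2 fold changes of 0.00 (adjusted p = 0.985) and -0.69 (adjusted p = 0.26).

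IRF9, the DNA-binding subunit of ISGF3, lies on chromosome 14 at 24161053-24166565. Its level was 11.5, 13.1 and 13.3 CPM in the high-dose libraries and 16.7, 20.0 and 19.5 CPM in the low-dose libraries. IRF9 fell by 0.56 ± 0.06 (log2, edgeR adjusted p = 0.018) and also passed without the replicate term (adjusted p = 0.0426). STAT2, another subunit of ISGF3, had a log2 fold change of -0.14 (adjusted p = 0.279). STAT2, named after its values were seen, thus did not pass the test, although it was below its low-dose partner in all 3 replicates.

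PARP14 and PARP9, ADP-ribosyltransferase family members near each other on chromosome 3, and SAMD9, an antiviral factor on chromosome 7, made up the rest. PARP14 held 135, 138 and 131 CPM at the high dose against 160, 167 and 156 CPM at the low dose and fell by 0.26 ± 0.03 (edgeR adjusted p = 0.018). PARP9 held 37.8, 39.8 and 35.7 CPM against 42.9, 52.1 and 48.8 CPM and fell by 0.34 ± 0.05 (edgeR adjusted p = 0.0405). SAMD9 held 59.1, 57.1 and 53.6 CPM against 68.3, 70.5 and 69.7 CPM and fell by 0.30 ± 0.04 (edgeR adjusted p = 0.0229). The groups did not overlap for any of these 3 genes. Vehicle held PARP14, PARP9 and SAMD9 at means of 137, 40.5 and 56.2 CPM, against high-dose means of 134, 37.8 and 56.6 CPM. For MX1, IFIT1, IFIT3 and IFITM3 the vehicle means were 9.52, 6.96, 11.4 and 18.7 CPM. These lay nearer the low-dose means (10.9, 8.22, 12.2 and 20.3 CPM) than the high-dose means (6.66, 4.74, 8.96 and 15.6 CPM). Vehicle means of OAS2, OAS1 and IRF9 (6.04, 29.6 and 14.6 CPM) lay between those of the doses.

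**Figure D2:**
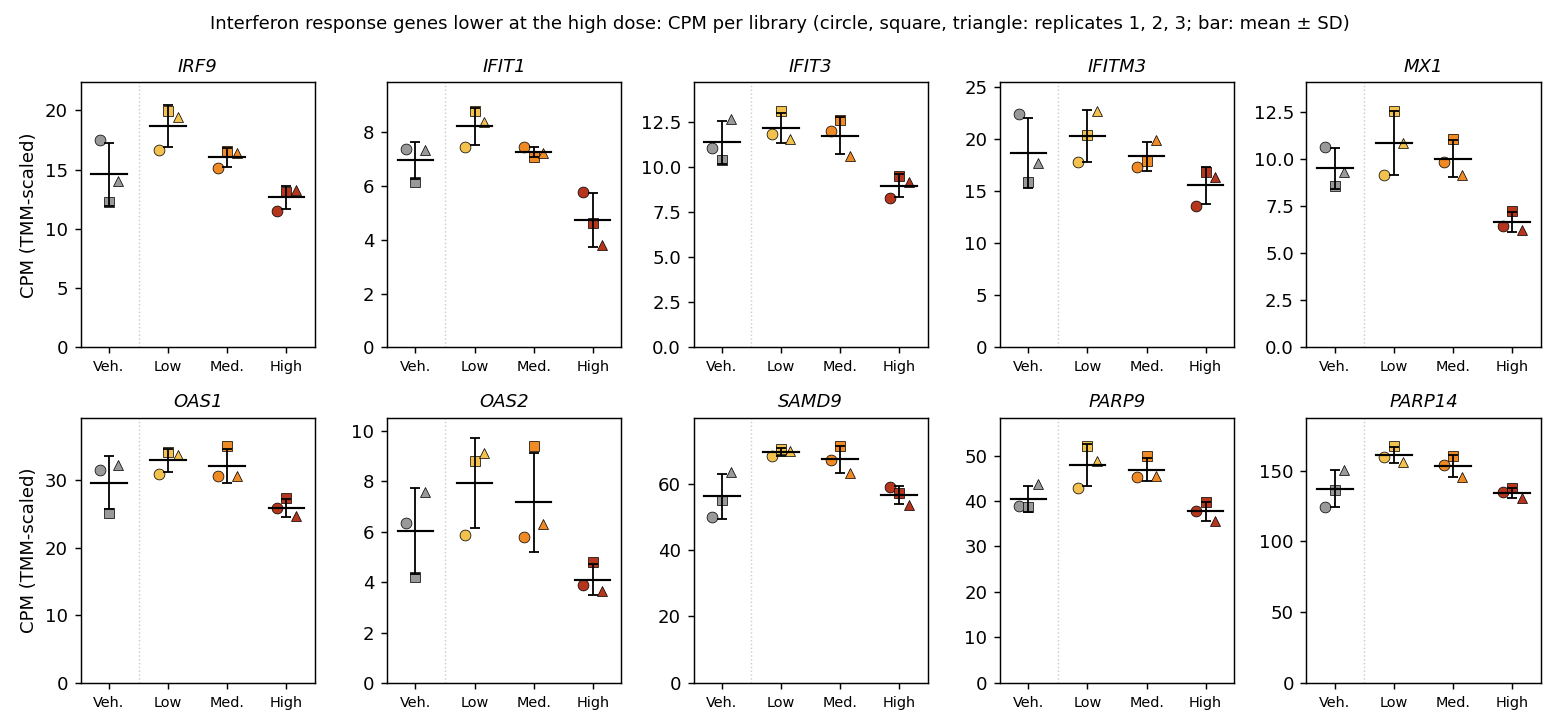
CPM on TMM-scaled totals (y axis, from 0) of the 10 interferon response genes that were lower at the high dose, by group (x axis: vehicle, low, medium, high). Symbols are the 3 libraries of a group and bars the mean ± SD. In each panel the 3 high-dose libraries lie under the 3 low-dose libraries, and the medium-dose means lie between the high and the low means.

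Of the 44 list members that did not pass, most also lay on the lower side. In 37 of the 54 members the high-dose libraries were all below the low-dose libraries, against 7.72% of all genes, and in 43 of 54 (79.6%, against 17.6% of all genes) the high dose was lower in each of the 3 replicates. The median member differed by -0.132, -0.274 and -0.312 (log2) in replicates 1, 2 and 3. Relative to the low-dose mean, the median member stood at -0.241, -0.218 and -0.288 in the 3 high-dose libraries and at -0.076, -0.199 and -0.076 in the 3 vehicle libraries. The second vehicle library was thus close to the high-dose libraries, and the other 2 vehicle libraries lay near the lowest low-dose library, at -0.088. SAMD9L and TRIM22, the list's other 2 genes, had too few counts to be tested (43 and 37 in the 6 libraries together). Genes of a list are not replicates, so these counts are descriptions. The number of members called was 3 without the replicate term and 0, 3 and 6 when replicates 2, 1 and 3 were left out, while the list's median stayed between -0.31 and -0.25 in each of those settings. It was 18 with all 9 citrus peel libraries in the fit, 13 with the 18 libraries of both extracts and 27 with no filter on low counts.

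Interferons and their receptors and kinases showed no call. In a list of 14 tested genes of interferon signalling, 0 passed in edgeR, 1 was lower at an unadjusted p under 0.05, and the median was -0.02. The genes of the interferons themselves were close to silent: IFNB1, IFNL1, IFNL2 and IFNL3 had 2, 4, 2 and 2 counts in the 6 libraries together and were not tested. Antigen presentation, a further interferon target group, had 0 of 17 calls in edgeR, 1 gene at an unadjusted p under 0.05 and a median of -0.06. Its member NLRC5, an activator of MHC class I genes, had a log2 fold change of -0.84 with an adjusted p of 0.162.

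ACSS2 makes acetyl-CoA from acetate in the cytosol and nucleus and lies on chromosome 20 at 34872146-34927962. It stood at 16.6, 16.9 and 16.1 CPM at the high dose and at 25.4, 23.2 and 22.4 CPM at the low dose. The 3 high-dose values lay within 1 CPM of each other and well under each low-dose value, and ACSS2 fell by 0.52 ± 0.06 (log2, edgeR adjusted p = 0.018). It passed in 8 of the 10 alternative settings, including the fit without the replicate term (adjusted p = 0.0329). Among 26 tested genes of acetyl-CoA and fatty acid synthesis ACSS2 was the only member called, against 0.199% lower among all genes. The list's median was -0.01. The next by adjusted p were the desaturase SCD at -0.18 and the factor SREBF1 at -0.15 (adjusted p of 0.0895 and 0.0905).

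Of 27 genes of cholesterol synthesis and its SREBP control, 2 were lower and 0 higher, against 0.199% and 0.0772% of all genes. The list had 25 negative values and a median of -0.10. LSS, lanosterol synthase, held 107, 106 and 104 CPM at the high dose against 121, 126 and 124 CPM at the low dose and fell by 0.22 ± 0.03 (edgeR adjusted p = 0.0397). INSIG1 held 159, 139 and 150 CPM against 180, 163 and 170 CPM and fell by 0.20 ± 0.03 (edgeR adjusted p = 0.044). The INSIG1 groups came close to each other, with 159 CPM in the highest high-dose and 163 CPM in the lowest low-dose library. HMGCS1, an early enzyme of the pathway, had a value of -0.18 (adjusted p = 0.0858). The median member was lower in each replicate (-0.0851, -0.0653 and -0.19). In all 3 replicates 18 of 27 members were lower (66.7%, against 17.6% of all genes). The sterol regulatory element, searched as TCACNCCAC on both strands, was found in 0.875% of all promoters and in 1 of 20 promoters of this list, and not in the windows of LSS, INSIG1 or ACSS2. Both calls were lost without the replicate term, at adjusted p of 0.0502 for LSS and 0.218 for INSIG1. The list held 6 lower calls with 9 citrus peel libraries in the fit, 5 with 18 libraries, 9 with no filter and 0 without replicate 1 or 2. Among all genes, the fits with 9 libraries, 18 libraries and no filter called 123 of 15903, 121 of 16325 and 260 of 28220 lower.

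Among the genes that were higher, CDC25A and XRCC2 belong to S phase and DNA repair. CDC25A removes inhibitory phosphates from cyclin-dependent kinases. Its promoter is shown because E2F sites are a known feature of replication genes: it holds the letters TTTNGCGC, in capitals.
CDC25A, chr3:48188429-48188486, minus strand: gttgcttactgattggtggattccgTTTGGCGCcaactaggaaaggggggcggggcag
The E2F letters were found in 1.54% of all promoters, in 2.46% of the tested genes and in 11 of 42 genes (26.2%) of a DNA replication list. CDC25A stood at 45.7, 44.4 and 44.2 CPM at the high dose and at 39.6, 36.8 and 35.9 CPM at the low dose, a log2 rise of 0.26 ± 0.04 (edgeR adjusted p = 0.0429). XRCC2, a gene of homologous recombination, stood at 61.4, 59.1 and 58.9 CPM against 53.6, 50.3 and 48.0 CPM and rose by 0.24 ± 0.04 (edgeR adjusted p = 0.0405). Neither gene's groups overlapped.

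CDC25A was the 1 gene called of 51 in the DNA replication list, against 0.0772% of all genes. The number called in this list was 0 without the replicate term, 9 with 9 citrus peel libraries in the fit, 8 with the 18 libraries of both extracts and 12 with no filter. Of the 51, 50 had a positive value, and the list's median was 0.11. In 35 of the 51 the high-dose libraries were all above the low-dose libraries, against 8.03% of all genes, and 42 of 51 (82.4%, against 18.2% of all genes) were higher in each replicate. The helicase subunits MCM3 and MCM4 stood at 0.16 each (adjusted p of 0.0858 and 0.0895) and the checkpoint adaptor CLSPN at 0.19 (adjusted p = 0.0862). Relative to the low-dose mean the median member was at 0.11, 0.12 and 0.107 in the high-dose libraries, from -0.012 to 0.028 in the low-dose libraries and from 0.038 to 0.050 in the vehicle libraries. Genes of mitosis were less displaced: in a list of 26 the median was 0.05 with 0 calls in edgeR. At an unadjusted p under 0.05, 9 of them were higher, against 1095 of all 15553 genes.

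HSPA5, the chief chaperone of the endoplasmic reticulum, is known for endoplasmic reticulum stress elements in its promoter. The letters searched were CCAAT followed, after any 9 bases, by CCACG, and capitals mark the whole match.
HSPA5, chr9:125241366-125241434, minus strand: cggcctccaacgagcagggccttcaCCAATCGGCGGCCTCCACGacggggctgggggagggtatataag
They were found in 0.0806% of all promoters and in 6 of 28 promoters (21.4%) of a list of endoplasmic reticulum chaperones and unfolded protein response genes. HSPA5 stood at 432, 433 and 398 CPM at the high dose and at 359, 349 and 345 CPM at the low dose. The lowest high-dose library was above the highest low-dose library, and HSPA5 rose by 0.26 ± 0.04 (log2, edgeR adjusted p = 0.0203). It was the 1 gene called of 33 in that list, against 0.0772% higher among all genes, and the list's median was 0.04. The list held 0 calls without the replicate term or without replicate 1 or 2, 2 in DESeq2, 5 with 9 or 18 libraries in the fit and 7 with no filter. DNAJB11, HSP90B1 and PDIA4, which fold proteins in the same compartment, had values of 0.21, 0.17 and 0.16 (adjusted p of 0.0602, 0.083 and 0.0905). Vehicle held HSPA5 at 381, 381 and 387 CPM, between the doses.

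Cytosolic heat shock genes had the highest median of the lists with at least 5 tested genes, 0.12, with 17 of 20 positive. None of the 20 passed in the 6-library edgeR fit (0 calls, with 14 higher at an unadjusted p under 0.05, and 0 in DESeq2). Among all 15553 genes, 1095 were higher at that unadjusted p. Other edgeR fits called 5 (9 citrus peel libraries), 4 (18 libraries of both extracts), 10 (no filter) and 1 (without replicate 3). FKBP4, HSPA1B and STIP1 had values of 0.17, 0.17 and 0.15 (adjusted p of 0.0776, 0.0905 and 0.0949). HSPA1B and its neighbour HSPA1A are near-identical, so reads can be split between them.

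The other higher genes by the naming rule serve RNA, ribosome and polyamine production or the cytoskeleton. GEMIN5, which recognises small nuclear RNA for the SMN complex, held 65.4, 62.0 and 62.7 CPM at the high dose against 54.9, 52.3 and 49.8 CPM at the low dose and rose by 0.27 ± 0.04 (edgeR adjusted p = 0.0203). GNL3L, a nucleolar GTPase, held 46.0, 47.4 and 46.0 CPM against 37.6, 38.4 and 40.2 CPM and rose by 0.26 ± 0.04 (edgeR adjusted p = 0.0405). The groups of both genes lay apart by more than their own range. Vehicle means were 53.6 CPM for GEMIN5 and 42.6 CPM for GNL3L.

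TCOF1, which supports transcription of ribosomal RNA, held 161, 170 and 175 CPM at the high dose against 144, 145 and 151 CPM at the low dose. SRM, spermidine synthase, held 103, 106 and 111 CPM against 89.2, 93.0 and 97.7 CPM. Both rose by 0.20 ± 0.03 (log2, edgeR adjusted p = 0.044 and 0.0447). TUBA4A, an alpha-tubulin, COTL1, an actin-binding protein, and CAVIN1, a coat protein of caveolae, rose by 0.22, 0.22 and 0.20 (adjusted p of 0.0376, 0.0429 and 0.0488). The COTL1 groups were the closest of these, with 124 CPM in the lowest high-dose and 121 CPM in the highest low-dose library. Vehicle means were 160, 109, 147, 129 and 103 CPM for TCOF1, SRM, TUBA4A, COTL1 and CAVIN1. In that order, high-dose means were 169, 107, 152, 133 and 105 CPM and low-dose means 147, 93.3, 130, 114 and 91.2 CPM. For each of TCOF1, SRM, TUBA4A, COTL1 and CAVIN1 the vehicle mean lay nearer the high-dose than the low-dose mean. The reverse was so for HSPA5, GEMIN5, CDC25A and XRCC2, with vehicle means of 383, 53.6, 40.9 and 47.8 CPM. Their low-dose means were 351, 52.3, 37.4 and 50.6 CPM and their high-dose means 421, 63.4, 44.8 and 59.8 CPM. The GNL3L vehicle mean (42.6 CPM) lay about midway between 38.7 and 46.5 CPM. Without the replicate term none of the 10 named higher genes passed: their adjusted p ran from 0.054 for TUBA4A to 0.243 for COTL1.

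The remaining lower genes by the naming rule were KLHL24, SYTL2, HDAC5, PRSS22 and POC1B-GALNT4. KLHL24, a substrate adaptor of a cullin ubiquitin ligase, held 20.5, 18.7 and 17.0 CPM at the high dose against 26.4, 26.2 and 22.6 CPM at the low dose and fell by 0.42 ± 0.06 (edgeR adjusted p = 0.0203). SYTL2, a Rab27 effector in vesicle docking, held 30.4, 29.7 and 27.0 CPM against 37.8, 38.5 and 34.8 CPM and fell by 0.35 ± 0.04 (edgeR adjusted p = 0.018). Replicate 3 was the lowest library of its group for both genes at both doses, and the groups did not overlap.

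HDAC5, a class II histone deacetylase, held 19.9, 22.2 and 21.4 CPM at the high dose against 25.6, 26.3 and 29.1 CPM at the low dose. PRSS22, a serine protease of epithelia, held 19.2, 18.7 and 19.4 CPM against 23.4, 23.6 and 26.3 CPM. Both fell by 0.35 ± 0.06 (edgeR adjusted p = 0.0429 for each), with no overlap of the groups.

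TRIM31 and several other genes of epithelial cells were named after their values were seen. TRIM31, a ubiquitin ligase of the intestinal epithelium, held 103, 110 and 116 CPM at the high dose against 137, 133 and 147 CPM at the low dose and fell by 0.34 ± 0.04 (edgeR adjusted p = 0.018). The phosphatase PTPRH and the integrin subunit ITGA1 fell by 0.32 and 0.28 (adjusted p of 0.018 for each). LGALS9, galectin 9, fell by 0.27 (adjusted p = 0.0302) and LCN2, the iron-siderophore binder lipocalin 2, by 0.25 (adjusted p = 0.0203). LCN2 was the 1 gene called of 19 in a list of NF-kB targets and chemokines, against 0.199% lower among all genes. That list's median was 0.00.

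A few calls concern transcripts that overlap or copy other genes. POC1B-GALNT4, a read-through transcript, held 5.21, 4.47 and 6.30 CPM at the high dose against 7.55, 10.2 and 11.1 CPM at the low dose and fell by 0.84 ± 0.11 (edgeR adjusted p = 0.0203), while its parent genes POC1B and GALNT4 had values of -0.01 and 0.11 (adjusted p of 0.971 and 0.456). The vehicle libraries held it at 3.08, 6.57 and 2.59 CPM. The pseudogenes ZBTB45P1 and ZBTB45P2, processed copies on chromosome 2, went opposite ways: the former rose by 0.88 and the latter fell by 0.53 (adjusted p of 0.018 and 0.0397). Their summed level was 24.9, 22.2 and 23.8 CPM at the high dose and 23.5, 24.3 and 23.3 CPM at the low dose, so the sum did not separate the doses. COLCA1, IGFL2-AS1 and 2 genes without a symbol (ENSG00000261093 and ENSG00000250264) complete the calls outside the rule, with BCAS1, ATP9A, MXD4 and GPRC5C. COLCA1 and IGFL2-AS1 lie antisense to neighbours, and the strand setting of the counting is not given in the sources used here, so reads of the other strand's gene may enter them.

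**Figure D3:**
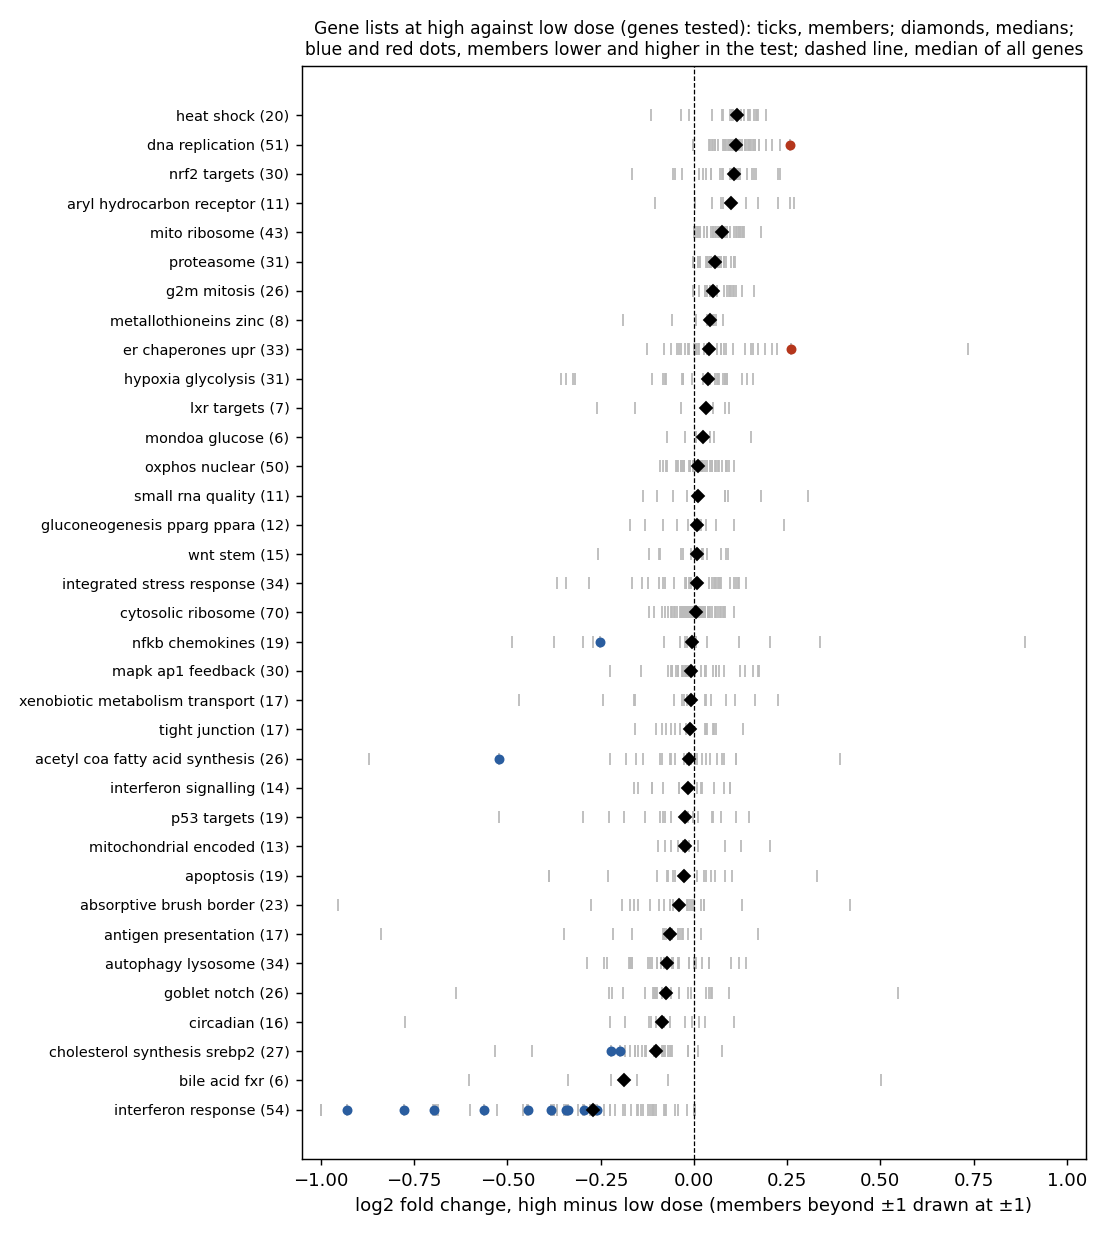
Log2 fold changes, high minus low dose (x axis), of the members of each gene list with at least 5 tested genes, the number tested in brackets. Grey ticks are members, diamonds medians and coloured dots members past the threshold. The interferon response list has the lowest median (-0.27) and 10 of the calls, while the DNA replication and heat shock lists lie on the higher side with medians of 0.11 and 0.12.

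Most targets of the xenobiotic receptor AhR and of NRF2 had positive values without calls in the 6-library fit, and a list of 17 tested genes of xenobiotic metabolism and transport had 7 positive and 10 negative values and 0 calls in edgeR (4 higher and 1 lower at an unadjusted p under 0.05). Of 11 tested aryl hydrocarbon receptor genes, which answer to planar aromatic compounds, 10 were positive with a median of 0.10, 0 passed in the 6-library edgeR fit, and 5 were higher at an unadjusted p under 0.05. CYP1A1, the most inducible target of that receptor, had 0.775, 0.629 and 1.01 CPM at the high dose and 0.617, 0.430 and 1.00 CPM at the low dose, which overlap (log2 fold change 0.26, edgeR adjusted p = 0.708). CYP1B1 had 0.17 (adjusted p = 0.1) and UGT1A6 0.23 (adjusted p = 0.0626). Of 30 targets of NRF2, the factor of the oxidative stress response, 26 were positive with a median of 0.11. In the 6-library fits of edgeR or DESeq2 0 passed, with 16 higher and 1 lower at an unadjusted p under 0.05. Among all 15553 genes, 1095 were higher and 973 lower at that unadjusted p. Other edgeR fits called 3 of them (9 citrus peel libraries), 1 (18 libraries of both extracts), 7 (no filter) and 2 (without replicate 3). Its targets HMOX1 and NQO1 had 0.17 and 0.08 (adjusted p of 0.351 for each), and AKR1B10 had 0.23 (adjusted p = 0.0626).

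All 43 tested genes of the mitochondrial ribosome had positive values, with a median of 0.07, and so did 29 of 31 proteasome genes, with a median of 0.06. Neither list had a call in edgeR (0 and 0), and 15 and 7 members were higher at an unadjusted p under 0.05. Among all 15553 genes, 1095 were higher at that unadjusted p. In replicate 3 both medians were small (0.0148 and -0.00644), against 0.0661 to 0.112 in the other replicates. The 70 ribosomal protein genes of the cytosol had a median of 0.01 with 0 calls in edgeR and 1 gene higher at an unadjusted p under 0.05.

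The medium dose was tested against the low dose in the same way, with the same low-dose libraries. Only 2 of 15710 genes passed (0.0127%), 1 in each direction (0.00637%), both with very low levels: CXCR5, with 0 CPM in all 3 low-dose libraries and at most 2.89 CPM in a medium-dose library, and NPIPA2, with at most 0.728 CPM in any of the 6. Both were named after their values were seen. Their mean log2 CPM was -0.28 and -1.29, so a filter at a mean CPM of 1 removes both genes untested. That setting therefore does not test them. Of the 13293 genes it kept, none passed, while 479 had an edgeR p below 0.05 before adjustment. The interferon list had a median of -0.05 for the medium dose against -0.27 for the high dose, and the DNA replication list 0.03 against 0.11. Each of the 10 interferon genes called for the high dose had a negative medium-dose value, from -0.03 in PARP9 to -0.22 in IRF9, and none of them passed. These contrasts share their low-dose libraries, so the values are set side by side without a test.

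High against medium dose, which shares the high-dose libraries, gave 165 of 15610 genes (1.06%), 87 higher (0.557%) and 78 lower (0.5%). The coefficient of variation left after the dose and replicate terms were fitted was 2.54% here and 3.76% in high against low. Without the replicate term 0 genes passed in edgeR (934 at an unadjusted p under 0.05), and DESeq2 with the term called 42. Leaving out replicates 1, 2 and 3 gave 13, 139 and 443 genes. The naming rule gave RPUSD2, a pseudouridine synthase relative, PPAN, a ribosome assembly factor, AKR1C2, RASA4B and BIVM-ERCC5 as the largest rises, at 0.31, 0.30, 0.31, 0.32 and 0.63. PPAN held 29.8, 31.3 and 34.1 CPM at the high and 23.2, 26.5 and 27.5 CPM at the medium dose (edgeR adjusted p = 0.00265). The largest falls by the rule were OAS2, SULT1A3, POC1B-GALNT4, IFIT1 and MX1, at -0.79, -0.74, -0.71, -0.61 and -0.59. RASA4B, BIVM-ERCC5, AKR1C2 and SULT1A3 are copies or read-through transcripts of near-identical sequence and are less certain.

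In high against medium dose the interferon list had 14 lower and 0 higher members of 54 and a median of -0.21. The sterol list had 6 lower members of 27. Among all genes of that contrast 0.5% were lower and 0.557% higher. RN7SL2 also moved with this contrast, rising by 0.71 (edgeR adjusted p = 0.000399), and 7 of 70 cytosolic ribosomal protein genes were higher. Their part in the other calls of that contrast was not tested.

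**Figure D4:**
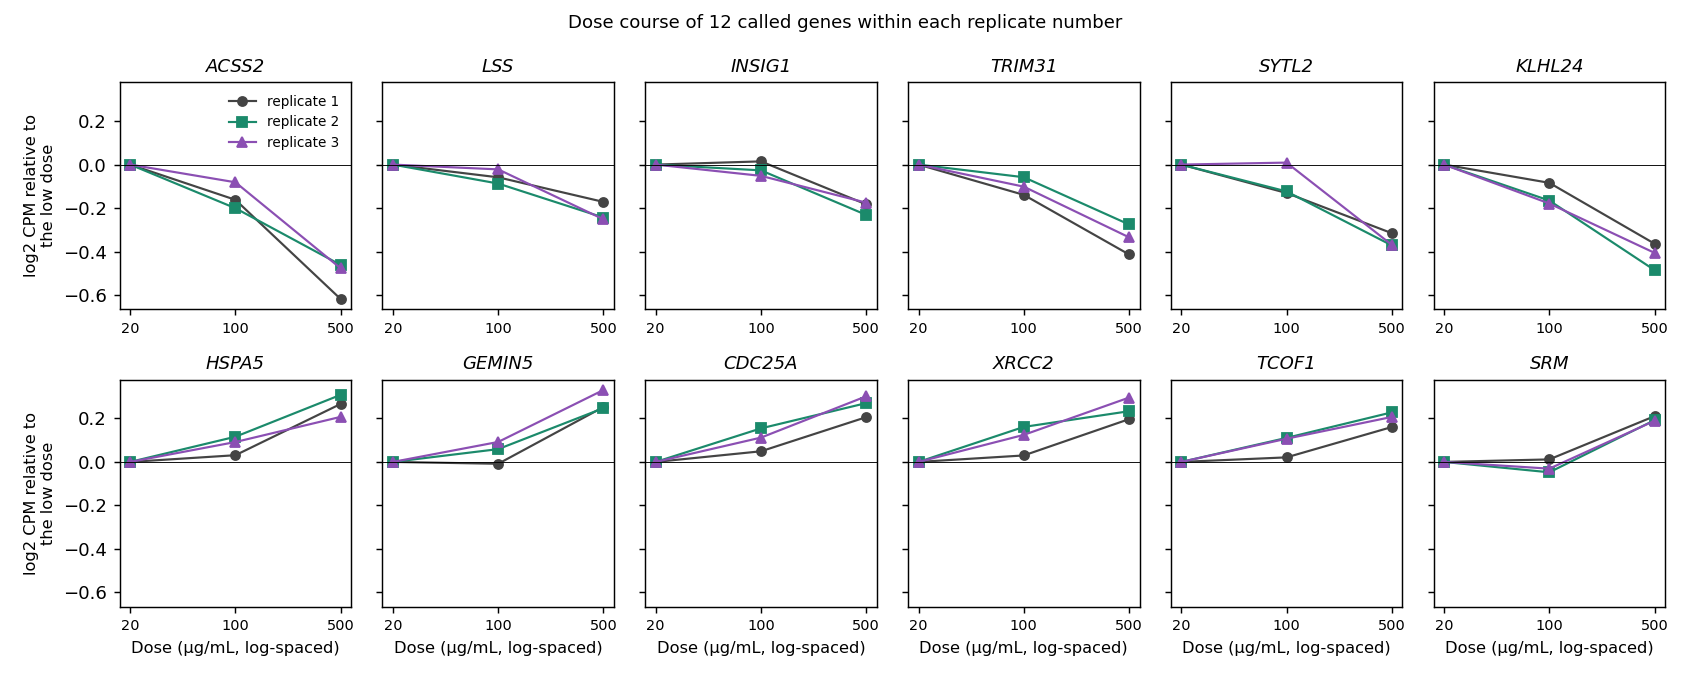
Log2 CPM relative to the low-dose library of the same replicate number (y axis) against dose (x axis, log-spaced) for 12 of the called genes, 1 line per replicate. ACSS2, KLHL24 and TRIM31 descend at each step in all 3 replicates, whereas SRM and INSIG1 stay near 0 at the medium dose and move at the high dose.

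Cimicifuga was given at the same doses, has the same first part of the sample code and shares no library with citrus peel. The difference of the dose effects was therefore tested over 12 libraries. This difference passed for 60 of 15982 genes (0.375%), with 24 where the citrus peel effect was the higher (0.15%) and 36 where it was the lower (0.225%). Without the replicate term 39 passed, and leaving out replicates 1, 2 and 3 gave 18, 8 and 135. None of the 54 interferon list members was among the 60 (0 calls in edgeR): the list's median was -0.27 for citrus peel and -0.13 for cimicifuga. OAS2 had -0.93 with citrus peel and -0.31 with cimicifuga (difference -0.64, edgeR adjusted p = 0.4), and IRF9 had -0.56 and -0.37 (difference -0.20, adjusted p = 0.654). The sterol list's median was -0.10 for citrus peel and -0.12 for cimicifuga. ACSS2 had -0.52 and -0.32 (difference -0.21, edgeR adjusted p = 0.425). LSS had -0.22 and -0.11 (edgeR adjusted p = 0.451 for the difference) and INSIG1 -0.20 and -0.19 (0.958). A p that misses the threshold does not show that the extracts act alike. SYTL2, ITGA1 and BCAS1 were lower at the high dose of cimicifuga as well, by 0.34, 0.33 and 0.32 (adjusted p of 0.041, 0.0328 and 0.0139), in a comparison that called 0.868% of its genes, 0.369% higher and 0.499% lower.

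Oxidative stress genes separated the extracts. Of the 30 NRF2 targets, 16 had a lower dose effect with citrus peel than with cimicifuga and 0 a higher one. Among all genes tested for the difference, the shares were 0.225% lower and 0.15% higher. The medians of the NRF2 targets' dose effects were 0.11 for citrus peel and 0.43 for cimicifuga. HMOX1, which degrades haem, held 9.89, 9.78 and 10.7 CPM at the high and 8.72, 9.0 and 9.31 CPM at the low dose of citrus peel. With cimicifuga HMOX1 held 18.6, 18.1 and 17.8 CPM at the high and 8.83, 8.08 and 8.73 CPM at the low dose, and the difference of the dose effects was -0.93 ± 0.10 (edgeR adjusted p = 0.000179, and 0.0517 without replicate 2). NQO1, a quinone reductase, held 512, 519 and 497 CPM against 481, 489 and 476 CPM with citrus peel and 717, 714 and 740 CPM against 497, 504 and 498 CPM with cimicifuga (difference -0.46 ± 0.05, edgeR adjusted p = 0.000252). The low-dose levels of the extracts overlapped for HMOX1 and lay close together for NQO1, and the high dose of cimicifuga stood above all other libraries named here.

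AKR1C2, a reductase of ketosteroids, held 11.2, 11.2 and 9.5 CPM against 9.34, 9.57 and 10.5 CPM with citrus peel and 22.3, 22.4 and 23.8 CPM against 9.03, 9.92 and 9.26 CPM with cimicifuga. The difference of the dose effects was -1.16 ± 0.11 (edgeR adjusted p = 0.000107). CYP1B1 differed by -0.47 ± 0.06 (edgeR adjusted p = 0.00108), with 0.17 for citrus peel and 0.64 for cimicifuga. For CYP1A1 the values were 0.26 and 2.13, and their difference missed the threshold (adjusted p = 0.0694). Of the 11 aryl hydrocarbon receptor genes 4 had a lower effect with citrus peel and 0 a higher one, against 0.225% and 0.15% of all genes.

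Of the 43 genes called for citrus peel, 5 had a dose effect that differed from that of cimicifuga, against 0.375% of all genes. They were TRIM31, KLHL24, PRSS22 and IGFL2-AS1 among the lower and GNL3L among the higher genes. The 43 were chosen by their change in the same citrus peel libraries, which favours a difference, so this count is a description. KLHL24 had -0.42 with citrus peel and 0.11 with cimicifuga (difference -0.53 ± 0.08, edgeR adjusted p = 0.00932). GNL3L had 0.26 and -0.14 (difference 0.40 ± 0.07, edgeR adjusted p = 0.0205). The median dose effect of cimicifuga was 0.08 over the 12 higher and -0.14 over the 31 lower genes.

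**Figure D5:**
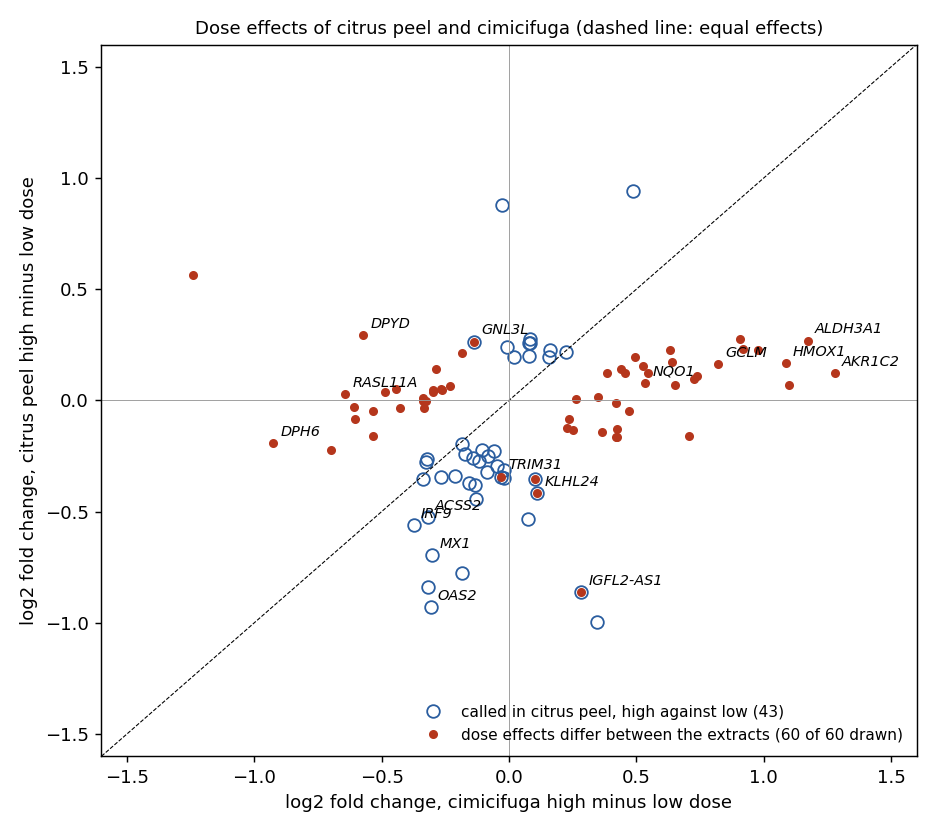
Log2 dose effects (high minus low) of cimicifuga (x axis) and citrus peel (y axis): open circles are the 43 genes called for citrus peel, red dots the 60 genes whose dose effects differed, and the dashed line marks equal effects. The oxidative stress genes HMOX1, ALDH3A1 and AKR1C2 lie far to the right near the horizontal axis, and TRIM31, KLHL24, IGFL2-AS1 and GNL3L are circles that hold a red dot.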

How the data were processed

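Messenger RNA was sequenced from HT29 cells. Per the labels' protocols, libraries were made with the MGIEasy directional kit from 1 µg of RNA and sequenced in pairs on MGIseq. Per the submitters' processing notes, RSEM 1.3.3 and STAR 2.7.3a were used on GRCh38, with Trim Galore 0.6.5 and FastQC 0.11.9. The sources used here do not give the annotation or the strand setting. RSEM shares reads between near-identical genes, which makes their values less certain. The authors deposited estimated counts (RSEM expected counts) for 60675 genes in 270 columns, not normalized. Of these, 60 columns matched labels and 210 were not used, and 8.68% of values were not whole and were rounded. Symbols came from a name table (56558 identifiers) and positions from GENCODE 29 on GRCh38 (57055).

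In edgeR 4.0.16 (R 4.3.3), the 6 libraries were filtered with filterByExpr, scaled with TMM and fitted with dose and replicate number by quasi-likelihood. P-values were adjusted by Benjamini-Hochberg over all genes tested, with 0.05 as threshold. The SE of a log2 fold change is its size over the root of its F statistic. The other contrasts were fitted likewise on their own 6 or 12 libraries. CPM are on TMM-scaled totals over the libraries of citrus peel, cimicifuga and vehicle. The script was tested on simulated data. Whether the labels' replicate numbers pair libraries was checked from correlated deviations around group means. Every pair passed 0.1 only in high against medium (r = 0.284, 0.147 and 0.431). High against low was set out with the replicate term, and the other fits took it over. Same-numbered high and low libraries of cimicifuga correlated at r = 0.0199, 0.0507 and 0.0284, so the numbers are not shown to pair them either. The log2 fold changes had a Spearman rho of -0.039 with exon length across genes, which are not independent. Replicates of a group differed beyond counting noise (chi-square per degree of freedom 3.48 to 15.2).

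The genes named were, per direction, the 12 (5 in other contrasts) with the largest change among genes that passed, at a mean log2 CPM of 1 or more, with all 3 replicates in 1 direction and no clone, antisense, pseudogene or non-coding name, up to 4 of each list, and ACSS2, HSPA5, IRF9, CYP1A1, CYP1B1, HMOX1, NQO1, INSIG1 and RN7SL2. The comparison and the 42 gene lists were chosen with earlier results of these data known. Promoters came from RefSeq (GRCh38.p14). Alternatives were no replicate term, more libraries in the fit, other scaling, filters, DESeq2 1.42.0 and leaving out each replicate.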

Additional observations from a re-analysis of the deposited data

Results flagged for a closer look

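The dose effect of citrus peel differed from that of cimicifuga in 60 genes (edgeR test of the difference, 12 libraries, adjusted p under the threshold). Listed here are 15 of them: 10 by the naming rule and 5 that were also called for citrus peel. Of the 10 that the naming rule gives, 5 had the higher effect with citrus peel: DPYD, a pyrimidine-degrading enzyme (difference 0.86 on the log2 scale), DPH6 (0.73), RASL11A (0.67), SLC14A1, a urea transporter (0.57), and DIAPH2, a formin (0.52). In DPYD the citrus peel effect was 0.30 and that of cimicifuga -0.57, whereas in DPH6, RASL11A, SLC14A1 and DIAPH2 the citrus peel effect lay between -0.19 and 0.04 and the cimicifuga effect between -0.93 and -0.49. The other 5 had the lower effect with citrus peel: AKR1C2 (-1.16), AKR1C1 (-1.04), HMOX1 (-0.93), ALDH3A1 (-0.91) and ABCG1, a sterol exporter (-0.87). Without replicate 1 the adjusted p was 0.212 for DPYD, 0.282 for DPH6, 0.22 for SLC14A1 and 0.254 for ABCG1. Without replicate 2 it was 0.0877, 0.515, 0.444 and 0.193 for these and 0.0877 for DIAPH2. SLC14A1 also missed the threshold without replicate 3 (0.0972), without the replicate term (0.153) and in DESeq2 (0.231). AKR1C1 and AKR1C2 are near-identical neighbours whose reads can be split.

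Of the genes called for citrus peel itself, TRIM31 (-0.32), KLHL24 (-0.53), PRSS22 (-0.46), IGFL2-AS1 (-1.15) and GNL3L (0.40) differed between the extracts. These genes were first chosen in the same citrus peel libraries, which favours a difference. For TRIM31 the cimicifuga effect was -0.03, and for PRSS22 and IGFL2-AS1 it was 0.10 and 0.28, against -0.35 and -0.86 with citrus peel.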

How the results depend on the processing

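Main counts of high against low were 12 higher and 31 lower. Without the replicate block they were 0 and 9, with all 9 citrus peel libraries in the fit 105 and 123, with 18 libraries (citrus peel and cimicifuga) 83 and 121, and with no filter on low counts 229 and 260. Leaving out 1 replicate gave 0 to 26 higher and 0 to 35 lower genes. Medium against low (2 genes) gave 1 without the replicate block, 0 with 9 or 18 libraries, 78 with no filter, 0 at a mean CPM of at least 1, 1 in DESeq2, and 0 to 82 leaving out 1 replicate. High against medium (165) gave 0 without the replicate block, 49 and 37 with 9 and 18 libraries, 522 with no filter, 42 in DESeq2 and 13 to 443 leaving out 1 replicate. The difference between the extracts (60) gave 39 without the replicate block, 129 with 18 libraries, 267 with no filter and 8 to 135 leaving out 1 replicate. At an unadjusted p under 0.05 the settings with 0 genes in medium against low held 681, 597, 479 and 485 (9 libraries, 18 libraries, mean CPM, without replicate 2). Fits that leave out a replicate have fewer samples. The mean CPM filter removes both genes of medium against low before testing. For the remaining settings the cause was not tested. DESeq2 size factors changed no count by over 1.5 times, and the median of all genes stayed within 0.01 of 0 in every setting.

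Same-numbered libraries of high and low dose correlated at r = 0.238, 0.0436 and 0.192, so the numbers are not shown to pair them. Low-dose replicate 2 correlated best with high-dose replicate 1 (0.047), the other 2 low-dose libraries with their own number. Depth limits the genes of low counts most, and the call of IFIT1 lies at the threshold.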
